A study of Mus musculus with 2 samples.

Results

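The 10 genes described here encode the claudins Cldn1, Cldn3, Cldn4, Cldn5, Cldn6, Cldn7 and Cldn18, the membrane protein occludin (Ocln), the scaffold ZO-1 (Tjp1) and the plaque protein cingulin (Cgn). They were chosen by name, and all 10 of them were present among the 27254 genes counted in either library. The libraries were Drop-seq libraries of whole lung from wild-type (wt) C57BL/6J mice at postnatal day 1, without treatment, and each of the 2 batches held cells of 1 female mouse. Drop-seq captures single cells with barcoded beads and counts transcript 3′ ends as unique molecular identifiers (UMIs). A total of 8003 cells had at most 10% mitochondrial UMIs, 2388 in Batch 1 and 5615 in Batch 2. No barcode was shared between the libraries.

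Tight junctions close the space between neighbouring cells of an epithelium or endothelium. Claudins form the strands and set which ions pass, occludin joins the strands, and ZO-1 and cingulin couple them to the actin cytoskeleton. In the lung, Cldn18 is known as an alveolar claudin, Cldn3, Cldn4 and Cldn7 as epithelial claudins, and Cldn5 as the main claudin of blood vessels.

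Cells were sorted into epithelial, endothelial and other classes by clustering that left out every junction gene listed. The epithelial class held 350 cells in Batch 1 and 1459 in Batch 2, the endothelial class 556 and 1482, and all remaining cells 1482 and 2674. Median depth was 1387 UMIs per cell in Batch 1 and 2014 in Batch 2, and epithelial cells were the deepest, with medians of 2272 and 3530 UMIs. The 6 epithelial markers summed to 12.7 and 18.98 UMIs per 10000 in epithelial cells of Batch 1 and Batch 2, against at most 0.827 elsewhere. The 6 endothelial markers summed to 53.7 and 60.9 in endothelial cells. In epithelial cells they summed to 6.11 in Batch 1 and 0.809 in Batch 2. Since the classes came from other genes of the same cells, the tests below measure how far these clusters differed in 2 mice. Intervals given with single levels are exact 95% Poisson intervals and cover counting error only.

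Promoter sequences are shown for Cldn18 and Cldn5, the most abundant of these claudins in epithelial and in endothelial cells, and for the neighbouring genes Cldn3 and Cldn4, to give the letters next to which their levels can be read. Each is the 250 bases before a RefSeq transcription start in GRCm38.p6, 5′ to 3′ on the strand of the gene, with capitals marking AACCNG or CAAGTG on either strand. In the GENCODE vM21 annotation of this build Cldn18 spans chr9:99689461-99717267, Cldn5 chr16:18776847-18778262, Cldn3 chr5:134986214-134987472 and Cldn4 chr5:134945119-134946934, and all of the 10 genes are protein coding. The Cldn18 windows lie at chr9:99717268-99717517 and chr9:99710064-99710313, on the minus strand, the second inside the annotated gene, and the counts do not tell the 2 starts apart. The Cldn5 window lies at chr16:18776597-18776846 on the plus strand. The Cldn3 window, chr5:134985964-134986213 on the plus strand, and the Cldn4 window, chr5:134946935-134947184 on the minus strand, belong to genes that point away from each other with 39279 bases between their starts.
Cldn18, upstream start: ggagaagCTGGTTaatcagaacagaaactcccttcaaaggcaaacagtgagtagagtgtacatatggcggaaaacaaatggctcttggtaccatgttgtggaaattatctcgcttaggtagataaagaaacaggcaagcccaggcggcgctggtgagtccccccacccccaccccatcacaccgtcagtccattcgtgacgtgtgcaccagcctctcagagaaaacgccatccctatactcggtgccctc
Cldn18, downstream start: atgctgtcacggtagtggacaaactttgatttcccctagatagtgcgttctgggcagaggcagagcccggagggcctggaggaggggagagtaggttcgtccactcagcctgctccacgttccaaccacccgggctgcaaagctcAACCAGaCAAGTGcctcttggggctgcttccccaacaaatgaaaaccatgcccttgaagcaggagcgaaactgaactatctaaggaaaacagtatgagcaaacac
Cldn5: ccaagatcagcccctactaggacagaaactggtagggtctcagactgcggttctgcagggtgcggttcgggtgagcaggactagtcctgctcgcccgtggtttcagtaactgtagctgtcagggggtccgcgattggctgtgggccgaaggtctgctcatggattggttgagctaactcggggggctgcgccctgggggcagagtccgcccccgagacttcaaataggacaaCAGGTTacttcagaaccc
Cldn3: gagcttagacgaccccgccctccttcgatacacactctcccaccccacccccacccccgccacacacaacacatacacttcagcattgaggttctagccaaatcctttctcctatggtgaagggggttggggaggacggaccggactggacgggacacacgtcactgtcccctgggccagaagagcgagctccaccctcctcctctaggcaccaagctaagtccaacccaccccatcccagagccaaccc
Cldn4: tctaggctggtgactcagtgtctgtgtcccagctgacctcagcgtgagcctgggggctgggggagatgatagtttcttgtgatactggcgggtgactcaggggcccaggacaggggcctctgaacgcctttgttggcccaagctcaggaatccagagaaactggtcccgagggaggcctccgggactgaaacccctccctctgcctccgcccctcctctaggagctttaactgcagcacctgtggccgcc
Among the 13 windows of the 10 genes, 9 held AACCNG, 10 held GGGCGG (a GC box), 3 held CAAGTG (an NKX2-1 core), and 1 each held CCGGAAGT (ETS) and GGAATG (TEAD). None held AACCGGTT (grainyhead-like), TATAAA or ACAAT (SOX). Over 32851 promoter windows of the same length these motifs, each searched on both strands and with AACCGGTT overlapping AACCNG, occurred in 33.9%, 32.7%, 11.6%, 2.88%, 12.6%, 0.116%, 12.4% and 27.7%, in the order named. The 13 windows had 51.2% to 70.4% GC, beside a median of 52.4% over all promoter windows. Cldn7, Cldn18 and Ocln have 2 windows each, and those of Ocln overlap. No enrichment was tested. The presence of such letters is a description of the window and not of a bound factor.

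Cldn18 was the most abundant of the 10 genes in epithelial cells, at 15.3 UMIs per 10000 in Batch 1 (95% interval 14.6 to 16.1) and 11.1 in Batch 2 (10.9 to 11.3). Its transcripts were found in 82.9% and 87.1% of epithelial cells. In endothelial cells the level was 0.374 and 0.207, and in other cells 0.238 and 0.479. The epithelial and the remaining classes did not overlap, and the log2 fold change was 5.78 ± 0.44 (SE) against endothelial cells (adjusted p = 0.000273, edgeR quasi-likelihood test with Benjamini-Hochberg adjustment) and 5.33 ± 0.43 against other cells (adjusted p = 0.000241). Across all genes tested, 18.1% were higher and 15.5% lower in epithelial than in endothelial cells, and 15.5% were higher and 15.7% lower than in other cells. Of the 9 genes that passed the filter on low counts, 6 were higher and 2 lower in epithelial than in endothelial cells, and 7 were higher and 1 lower than in other cells. Cldn3, which seals epithelial strands, was at 4.82 and 8.12 UMIs per 10000 in epithelial cells and at most 0.392 elsewhere. Its log2 fold change was 6.43 ± 0.55 against endothelial cells (adjusted p = 0.00041) and 5.39 ± 0.50 against other cells (adjusted p = 0.000412). Cldn7 was at 1.78 and 2.58 in epithelial cells and at most 0.0887 elsewhere, with log2 fold changes of 5.79 and 5.17 (adjusted p = 0.000112 and 0.000108). Cldn4 was a less abundant epithelial claudin, at 0.327 and 0.837, and lay at or under 0.0195 elsewhere. Its log2 fold changes were 7.10 and 5.39 (adjusted p = 0.000224 and 0.000187), the former resting on 3 UMIs in endothelial cells, where the pooled ratio was 145 with a counting interval of 49.3 to 703. Cgn, which links claudin strands to actin, was at 0.535 and 0.930 in epithelial cells and at most 0.0728 elsewhere (log2 fold changes 5.21 and 3.97, adjusted p = 0.000526 and 0.00051).

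**Figure D1:**
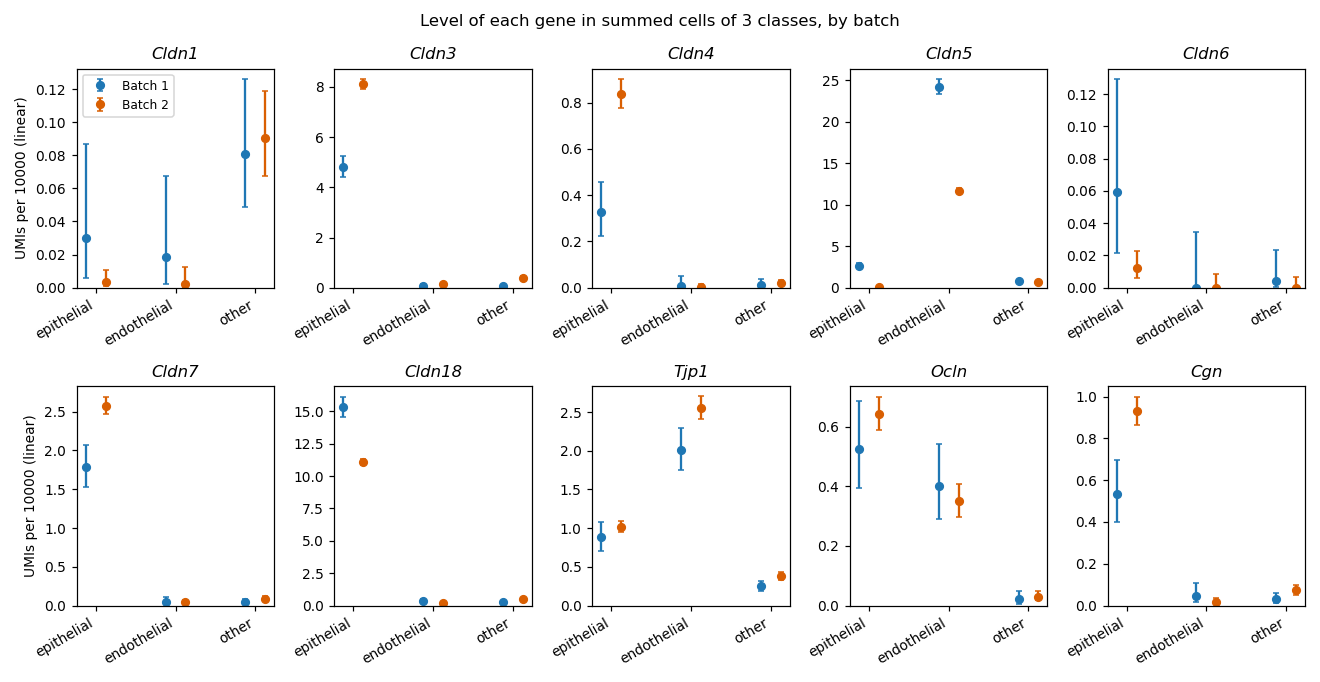
The level of each of the 10 genes (UMIs per 10000, linear axis from 0) is plotted for epithelial, endothelial and other cells, with Batch 1 in blue, Batch 2 in orange and bars for the exact Poisson interval of counting. Cldn18, Cldn3, Cldn7, Cldn4 and Cgn were highest in epithelial cells in both batches, Cldn5 and Tjp1 in endothelial cells.

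Cldn5, the vascular claudin, was at 24.2 UMIs per 10000 in endothelial cells of Batch 1 (95% interval 23.3 to 25.2) and 11.7 in Batch 2 (11.4 to 12.02), and 89.2% and 83.2% of these cells held a UMI. The 2 batches differed by more than counting error, and their vascular cells came largely from different clusters. In other cells the level was 0.850 and 0.644. Of these UMIs, 104 of 200 and 213 of 363 came from the 50 and 200 cells of unnamed clusters. Among these, cluster 29 held 4 and cluster 21 held 2 of the 6 endothelial markers at over 2-fold the remaining cells. Without the unnamed clusters the level was 0.430 and 0.302 and the log2 fold change of endothelial over other cells 5.45 (adjusted p = 0.00768). With all other cells the log2 fold change of endothelial over other cells was 4.39 ± 0.94 (adjusted p = 0.0157), and 10.1% of all genes were higher and 13.2% lower in that comparison, against 3 and 1 of the 9 genes. Of the 3 pooled classes, Tjp1 was likewise highest in endothelial cells, at 2.01 and 2.55, against 0.882 and 1.02 in epithelial and 0.246 and 0.382 in other cells. Its log2 fold change was −1.06 ± 0.20 for epithelial against endothelial cells (adjusted p = 0.0066) and 2.84 ± 0.21 for endothelial against other cells (adjusted p = 0.000351). Ocln was shared by both lining cell types, at 0.525 and 0.643 in epithelial and 0.402 and 0.350 in endothelial cells, and stood at 0.0213 and 0.0302 in other cells. It was higher in endothelial than in other cells (log2 fold change 3.76 ± 0.30, adjusted p = 0.000422) and higher in epithelial than in endothelial cells by 0.88 ± 0.23 (adjusted p = 0.024). The call of Tjp1 between epithelium and endothelium was lost with the finer classes in 1 fit (adjusted p = 0.321), and that of Ocln with DESeq2 (adjusted p = 0.125). Ocln in endothelial against other cells was not called with the finer classes in 1 fit (adjusted p = 1), where several classes had no Ocln UMI. Without the batch block, the calls between epithelium and endothelium were lost for Cldn5 (adjusted p = 0.0747), Tjp1 (adjusted p = 0.0772) and Ocln (adjusted p = 0.0892), as was that of Cldn5 in endothelial against other cells (adjusted p = 0.0534).

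In epithelial cells the level of Cldn5 differed between the batches, at 2.67 UMIs per 10000 in Batch 1 and 0.104 in Batch 2. Epithelial against other cells was not called for this gene (log2 fold change 0.10 ± 0.95, adjusted p = 0.955), and the batches lay on opposite sides, at 1.77 and −2.37. Against endothelial cells it was lower by −4.29 ± 0.98 (adjusted p = 0.0149), with −2.95 in Batch 1 and −6.58 in Batch 2. In AT1-like cells, the flat gas exchange cells, Cldn5 was at 8.19 in Batch 1 and 0.379 in Batch 2. The study's own cell list, which was used here for part of Batch 1, named 22 of the 103 AT1-like cells of that batch as contaminants with endothelial and epithelial genes. These 22 cells had 16.4 Cldn5 UMIs per 10000 (95% interval 14.01 to 19.03), and the remaining 81 had 3.11 (2.32 to 4.08). Of the 81, the 65 listed as another type had 2.09 (1.38 to 3.04). The 16 that were not on the list had 6.61 (4.28 to 9.76). Without every cell listed as a contaminant, a choice made after the data were seen, epithelial against other cells was again not called (log2 fold change −0.56, adjusted p = 0.577). When the AT1-like cells were divided by whether they held a UMI of any of the 6 endothelial markers, the 60 Batch 1 cells with one had 10.1 Cldn5 UMIs per 10000 and the 43 without had 1.79. In Batch 2 the 51 cells with one had 1.81 and the 257 without had 0.0361. Choosing cells without such UMIs itself leaves out endothelial RNA, so the split is a description.

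**Figure D2:**
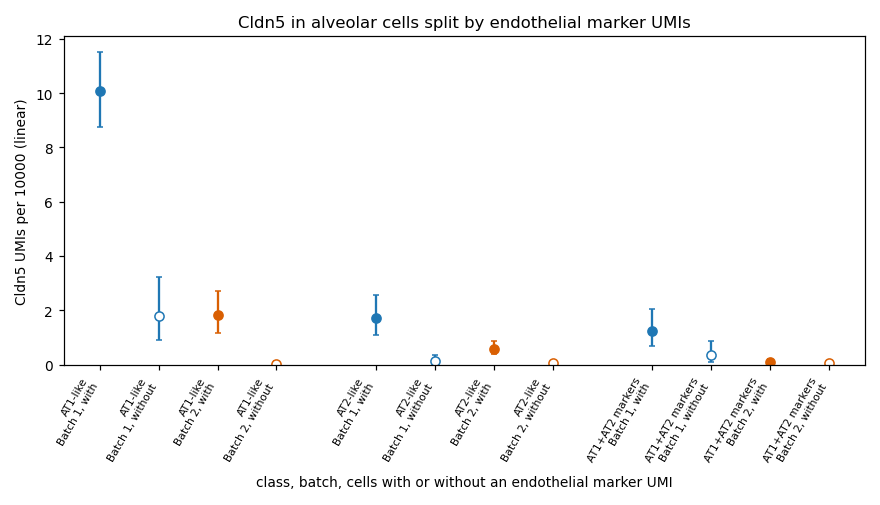
Cldn5 (UMIs per 10000, linear axis) is plotted for AT1-like cells, AT2-like cells and alveolar cells with markers of both, by batch (blue 1, orange 2), for cells with (filled) and without (open) a UMI of an endothelial marker; bars are exact Poisson intervals. The Batch 1 AT1-like cells with an endothelial marker UMI stood apart at 10.1.

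The levels of epithelial claudins in endothelial and other cells can be set beside those of Sftpc, the surfactant gene of AT2 cells, which was at 712 and 438 UMIs per 10000 in epithelial cells. Cldn18 stood in endothelial cells at 2.44% and 1.87% of its epithelial level, and Sftpc at 1.67% and 2.02%. In other cells Cldn18 stood at 1.55% and 4.33%, and Sftpc at 1.80% and 5.28%. Cldn3 stood at 1.36% and 1.59% in endothelial and 0.971% and 4.83% in other cells. These percentages keep the unnamed clusters among other cells, of which cluster 32 held 4 of 8 AT2 markers. Without unnamed clusters, Cldn18 in other cells was at 0.206 and 0.334 UMIs per 10000, in place of 0.238 and 0.479. Cldn3 was then at 0.0313 and 0.272, in place of 0.0467 and 0.392. Ocln was at 76.6% and 54.4% of its epithelial level in endothelial cells, while Epcam, an epithelial adhesion gene, was at 2.73% and 1.87%. The share of cells with a Cldn18 UMI was 2.88% and 3.98% in endothelial cells. Whether free RNA gave such UMIs was not tested, and shares this low are not read as expression.

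Cldn1 and Cldn6 were near the limit of detection. Cldn1 had 24 UMIs in Batch 1 and 55 in Batch 2, of which 79.2% and 92.7% lay in other cells. Pericyte-like cells, which wrap capillaries, had the highest Cldn1 level, at 1.04 UMIs per 10000 in Batch 1 and 0.475 in Batch 2, from 8 and 15 UMIs, and smooth muscle or myofibroblast-like cells followed by the mean of the batches, at 0.182 and 0.254, overlapping several other classes. Cldn1 was lower in epithelial than in other cells (log2 fold change −3.12 ± 0.86, adjusted p = 0.0313) and lower in endothelial than in other cells (−3.75 ± 0.95, adjusted p = 0.0299), but both calls were lost at a mitochondrial limit of 5% (adjusted p = 0.0966 and 0.0571), without the block (adjusted p = 0.0871 and 0.0709) and with the finer classes in 1 fit (adjusted p = 1 in both). Cldn6, a claudin of early development, had 6 and 10 UMIs in epithelial cells and none in endothelial cells, where the floor of 3 UMIs gives a pooled level at least 3.25-fold lower. It was the 1 gene of the 10 that did not pass the filter on low counts.

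Within the epithelium, Cldn18 decreased from AT1-like to airway cells. It was at 25.8 and 29.3 UMIs per 10000 in AT1-like cells, 18.8 and 14.6 in alveolar cells with AT1 and AT2 markers, 8.39 and 6.72 in AT2-like cells, which make surfactant, and 4.97 and 2.48 in airway cells. No neighbouring pair in this order overlapped between batches, but 18 of the 26 Cldn18 UMIs of Batch 1 airway cells came from 2 of 13 cells, and the 10 airway cells without an endothelial marker UMI were at 1.94. The alveolar cells with both marker sets were deeper, with medians of 4425 and 5881 UMIs. AT1-like cells had 1854 and 1913, and AT2-like cells 2106 and 3272. Whether the class with both marker sets holds droplets with an AT1 and an AT2 cell was not tested. AT1-like cells exceeded AT2-like cells by 1.50 ± 0.45 on the log2 scale (adjusted p = 0.0179), a call that was lost without the batch block (adjusted p = 0.193) and with DESeq2 (adjusted p = 0.268). Of all genes, 7.26% were higher and 6.16% lower in AT1-like than in AT2-like cells. Of the 9 genes tested, 6 were called higher in AT1-like cells and none lower. Tjp1 was higher by 1.71 ± 0.33 (adjusted p = 0.00022), with levels of 1.66 and 2.13 in AT1-like and 0.336 and 0.551 in AT2-like cells. Cldn4 was higher by 1.78 ± 0.46 (adjusted p = 0.00712), with 0.443 and 1.65 against 0.134 and 0.335. Ocln and Cgn were higher by 1.40 ± 0.44 and 1.39 ± 0.47 (adjusted p = 0.0298 and 0.0444). The calls of Cldn4, Ocln and Cgn were each lost without the block, with DESeq2 and at a mitochondrial limit of 5%, and that of Cgn also with finer clusters (adjusted p = 0.0629). Without cells that held an endothelial marker UMI, Cgn was at 1.46 in fewer cells (adjusted p = 0.051). Cldn5 was the sixth (2.81 ± 0.59, adjusted p = 0.00056), at 1.69 without the listed contaminants (adjusted p = 0.0223) and not called without cells that held an endothelial marker UMI (1.85, adjusted p = 0.148). Cldn3 and Cldn7 did not pass (log2 fold changes −0.48 ± 0.39 and 0.01 ± 0.38).

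**Figure D3:**
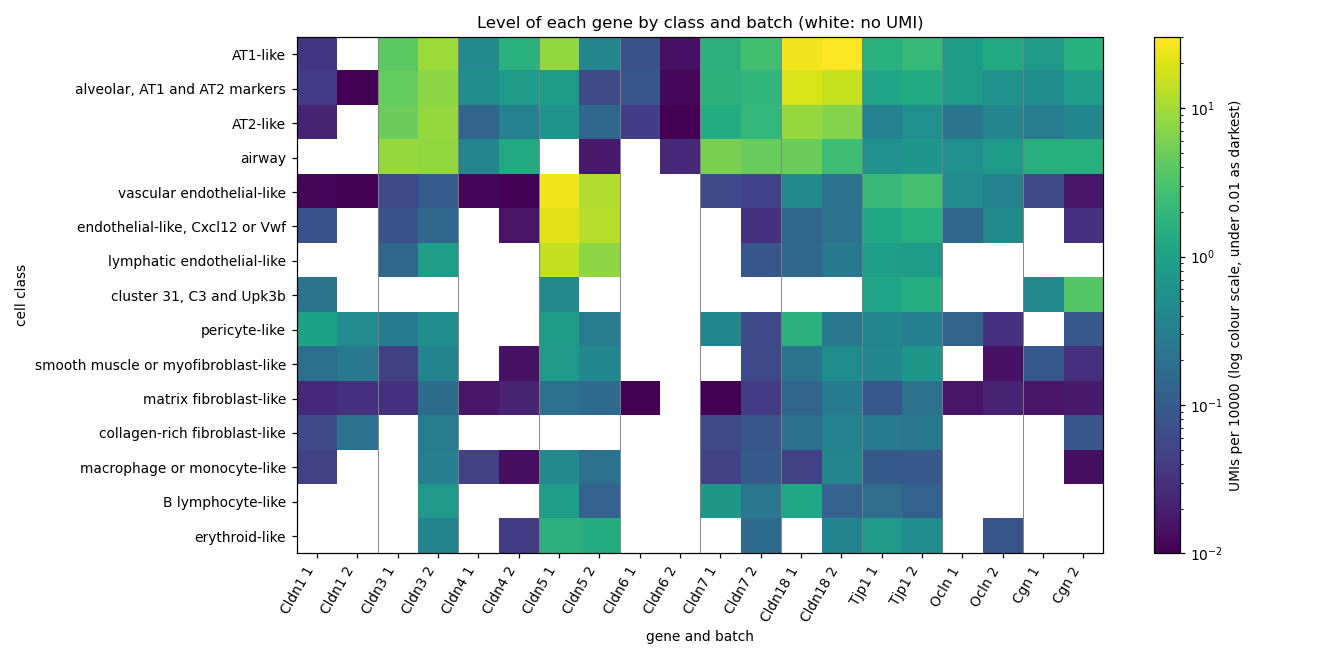
The level of each of the 10 genes (UMIs per 10000, log colour scale, no UMI in white) is shown for 15 cell classes in rows and for each gene and batch in columns. Cldn18 was brightest in AT1-like cells, and Cldn5 in the endothelial classes.

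In airway cells, which pooled secretory and ciliated cells (13 cells in Batch 1 and 117 in Batch 2), Cldn7 was at 5.73 and 4.65 UMIs per 10000, against 1.39 to 2.65 in AT1-like and AT2-like cells. The log2 fold change over alveolar cells was 1.15 ± 0.32 (adjusted p = 0.00977), in a comparison in which 9.90% of all genes were higher and 7.35% lower, and the call was lost without the block (adjusted p = 0.103) and without a filter on low counts (adjusted p = 0.0767). It was the 1 gene of the 9 called higher, and 2 were called lower. Cldn18 was lower in airway cells by −2.36 ± 0.46 (adjusted p = 0.000154), as was Cldn5 (−5.08 ± 0.95, adjusted p = 9.04e-05). The latter rested on 3 airway UMIs, and the pooled alveolar to airway ratio was 47.0 with a counting interval of 15.9 to 229. Without cells that held an endothelial marker UMI no airway Cldn5 UMI was left, so that the fitted log2 fold change (−6.01, not called, adjusted p = 0.0567) depends on the prior count. Cldn3 was at 8.79 and 8.10 in airway cells, and no difference from alveolar cells passed the test (0.14 ± 0.36, adjusted p = 0.854). Among all claudin UMIs, Cldn18 made up 62.0% and 66.0% in AT1-like cells, 50.5% and 35.9% in AT2-like cells and 21.3% and 11.5% in airway cells. Cldn3 made up 9.68% and 20.6%, 30.0% and 44.9%, and 37.7% and 37.6% in the same classes. The AT1-like shares of Batch 1 are lowered by Cldn5, which made up 19.7% there and 0.855% in Batch 2. Of those 222 Cldn5 UMIs of Batch 1, 170 came from the cells listed as contaminants. UMIs count 3′ ends and were not divided by length.

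Most AT1-like cells held Cldn18, and many held Cldn3 as well. Both were found in 55 of 103 AT1-like cells of Batch 1 and 231 of 308 of Batch 2, and in 91 of 184 and 441 of 618 AT2-like cells. Cldn3 without Cldn18 was seen in 2 and 7 AT1-like cells, but in 22 and 97 AT2-like cells. Shares with a UMI depend on depth. After each cell was thinned to 600 UMIs, which no cell fell short of, Cldn18 was found in 73.8% and 76.3% of AT1-like and in 41.3% and 34.3% of AT2-like cells, against 95.1% and 96.8%, and 74.5% and 79.6%, unthinned. Cldn5 was found in 70.3% and 50.1% of thinned endothelial cells. Tjp1 in endothelial cells was found in 26.1% and 40.6% unthinned and in 12.95% and 15.3% thinned.

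Between endothelial classes, lymphatic endothelial-like cells (20 and 26 cells) had Cldn5 at 14.3 and 7.73 UMIs per 10000, vascular endothelial-like cells had 25.5 and 11.7, and the difference did not pass (log2 fold change −0.90 ± 0.51, adjusted p = 0.318). With only these 2 classes in the fit it was called (−0.75, adjusted p = 0.00151). Higher calls made up 4.00% and lower calls 5.57% of all genes. Tjp1 was lower in lymphatic cells by −1.84 ± 0.41 (adjusted p = 0.00198), with 0.859 and 0.773 against 2.23 and 2.78. AT1-like cells, at 1.66 and 2.13, lay between these classes. They also lay above the endothelial-like class led by Cxcl12 or Vwf, at 1.19 and 1.54. Ocln had no UMI in lymphatic cells of either batch and 41 and 129 in vascular cells, and with 3 UMIs as the floor the pooled level was at least 2.29-fold lower. Cldn3 was called higher in lymphatic cells (2.50 ± 0.76, adjusted p = 0.0291) from 1 and 10 UMIs, a call lost without possible doublets (adjusted p = 0.564), without the block (adjusted p = 0.24), with DESeq2 (adjusted p = 0.124) and at a mitochondrial limit of 5% (adjusted p = 0.0516).

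**Figure D4:**
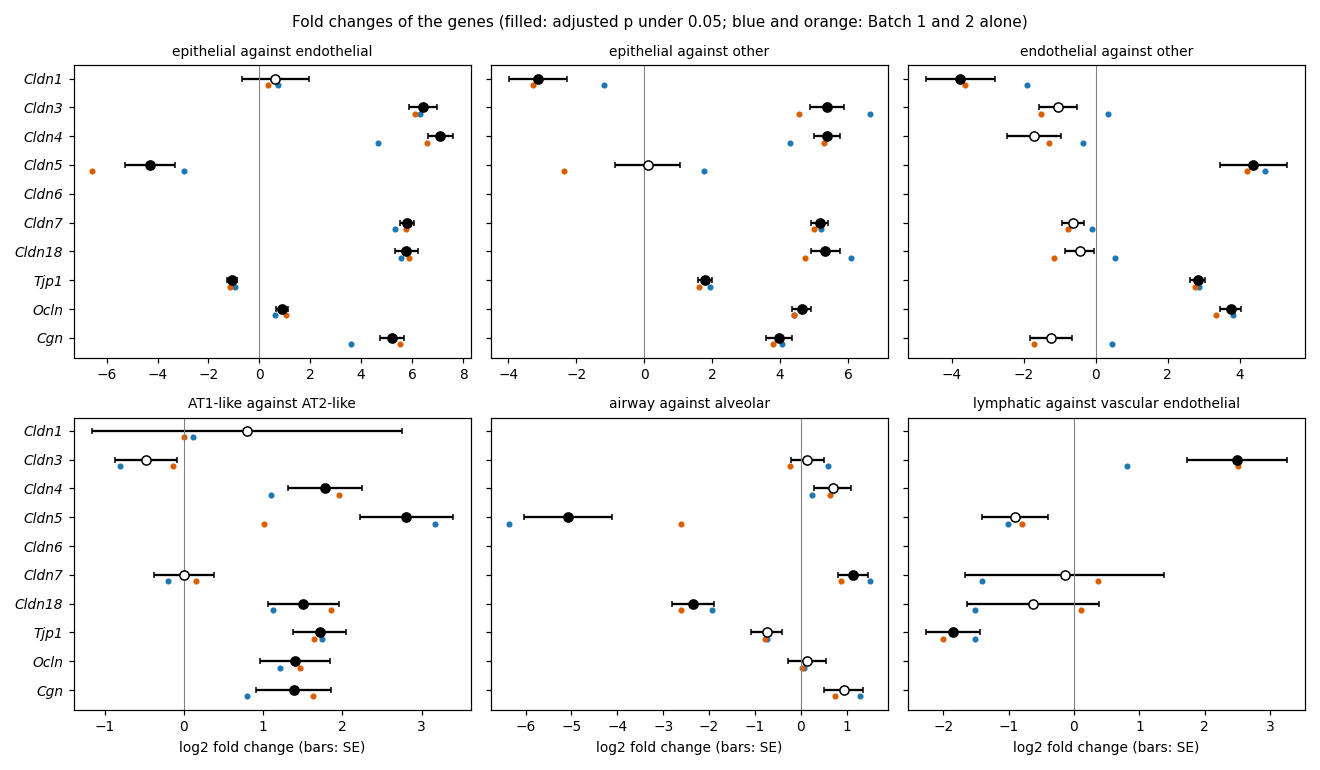
Fold changes (log2 axis, points with SE bars) of the genes are plotted for the 6 comparisons, filled where the adjusted p was under 0.05, with small points for Batch 1 (blue) and Batch 2 (orange) alone. Genes with no UMI in 1 of the classes, and Cldn6, are left out; Cldn5 lies on opposite sides of 0 between batches in epithelial against other cells.

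Outside the cells classed here as epithelial or endothelial, Cgn had its highest level in cluster 31, which was led by C3, Upk3b and Igfbp5. This cluster held all 6 mesothelial markers and 4 of 6 collagen-rich fibroblast markers at over 2-fold the remaining cells. Among its 10 leading genes stood 2 mesothelial and 3 collagen-rich fibroblast markers, and it was left without a cell type name. With 22 and 11 cells, it held Cgn at 0.435 (2 UMIs) and 3.62 (15 UMIs) and Tjp1 at 1.09 and 1.45 UMIs per 10000. The batch values of Cgn lay far apart and overlapped those of airway and AT1-like cells, and those of Tjp1 overlapped the unnamed cells (0.750 and 1.13). No Cldn3, Cldn4, Cldn7, Cldn18 or Ocln UMI was found in cluster 31 in either batch. Most of its claudin UMIs were of Cldn15, which is not among the 10 genes (7 of 13 in Batch 1 and 17 of 21 in Batch 2). With 45967 and 41447 UMIs in all, the floor of 3 UMIs stands for 0.653 and 0.724 per 10000, so that lower levels could go unseen.

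The other junction genes were listed by role. Of 12 adherens junction genes tested, 10 were higher and 1 lower in epithelial than in other cells, with a median log2 fold change of 1.61, beside −0.03 over all genes, of which 15.5% were higher and 15.7% lower. Against endothelial cells 4 were higher and 3 lower (median 0.205, beside 18.1% and 15.5% of all genes), as were 5 and 1 of 12 polarity genes (median 0.911) and 6 and 3 of 14 plaque and scaffold genes (median 1.08). Cdh1, the epithelial cadherin, was at 1.45 and 1.65 UMIs per 10000 in epithelial cells (log2 fold change 4.65 ± 0.24 against other cells, adjusted p = 0.000108). Cdh5, the vascular cadherin, was at 8.19 and 7.45 in endothelial cells and was higher than in other cells by 4.26 ± 0.885 (adjusted p = 0.0142). Of 12 polarity genes, 8 were higher and 0 lower in epithelial than in other cells (median 1.11), with Crb3, an apical protein, at 1.09 and 1.05 (5.39 ± 0.38, adjusted p = 0.00018) and Llgl2, a basolateral protein, at 0.921 and 1.36 (4.55 ± 0.27, adjusted p = 0.000131). Of 14 plaque and scaffold genes, 8 were higher and 2 lower in epithelial than in other cells (median 1.57), with Ybx3, a cold shock protein of junctions, lower by −1.21 ± 0.313 (adjusted p = 0.025), by −0.54 in Batch 1 and −1.76 in Batch 2, a call lost without the block (adjusted p = 0.0895) and with the finer classes in 1 fit (adjusted p = 0.0542). Of 11 other membrane genes, 7 were higher and 1 lower in epithelial than in other cells (median 2.57). Jam2 and Esam, adhesion molecules of vessels, were higher in endothelial than in other cells by 3.86 ± 0.57 and 3.79 ± 0.65 (adjusted p = 0.00404 and 0.00713), and neither was called with the finer classes in 1 fit (adjusted p = 1 and 0.088). In lymphatic cells Jam2 had no UMI, against 1.68 and 1.32 per 10000 in vascular cells, whereas Cxadr, a virus receptor of junctions, was higher by 4.01 ± 0.58 (adjusted p = 3.21e-06). The polarity genes Pard6g and Prkcz were higher there too, Pard6g at 3.87 and 5.16 against 0.335 and 0.390 and Prkcz at 0.430 and 0.602 against 0.0231 and 0.0454 UMIs per 10000. Among the other claudins, 5 passed the filter for the main classes, with 2 higher and 1 lower in epithelial than in other cells, and Cldn10 was at 2.68 and 4.18 UMIs per 10000 in airway and 0.238 and 0.339 in alveolar cells (3.65 ± 0.48, adjusted p = 1.79e-07). Tjp3, a relative of ZO-1, was higher in airway cells by 2.83 ± 0.45 (adjusted p = 6.47e-06). Pard6b had no UMI in airway cells of Batch 1 and 0.0783 per 10000 in Batch 2, against 0.765 and 1.67 in alveolar cells. Within the alveolus, Magi1 and Pard6b were higher in AT1-like than in AT2-like cells by 2.58 ± 0.465 and 2.525 ± 0.437 (adjusted p = 7.1e-05 and 4.36e-05). Cgnl1, a relative of cingulin, was lower in AT1-like cells by −1.44 ± 0.50 (adjusted p = 0.0478), and not called under 6 alternatives. Cdh5 was also called higher in AT1-like cells, by 2.90 ± 0.60 (adjusted p = 0.00044), but not without possible doublets (1.30, adjusted p = 0.316).

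Over 32 sums of 16 cell classes and 2 batches, the genes most like 7 of the 10 in log2 level were named by Pearson's r, as a description without a test, since sums of 1 batch share a library. Epcam was closest to Cldn3 (r = 0.897), followed by Kcnj15 and Myo5c. Prss8 was closest to Cldn18 (r = 0.900), followed by Nkx2-1, and Scnn1a to Cldn7 (r = 0.902), followed by Prss8. Rasip1 was closest to Cldn5 (r = 0.938), followed by Hey1 and Ptprb. Mllt4, Amotl1 and Crip2 were closest to Tjp1 (r = 0.885 for the first), Itga3, Pitpnm3 and Crb3 to Ocln (r = 0.843) and Fxyd3, Fgfbp1 and Inadl to Cgn (r = 0.907). Cldn18 and Cldn7 were among the 3 genes closest to each other (r = 0.871). Cldn1, Cldn4 and Cldn6 had too few UMIs for this.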

How the data were processed

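Whole lung of 2 newborn mice, 1 per batch, was dissociated and processed by Drop-seq. The authors deposited UMI counts per gene and cell, tagged over exons with the Drop-seq tools from reads aligned to mm10 with Bowtie2 2.2.7, for cells with at least 500 detected genes. These values were whole counts without normalization. Whether counting used strand was not given in the sources used here, so that reads of antisense neighbours (of Cldn18 and Cldn3, for example) cannot be told apart.

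Cells with over 10% mitochondrial UMIs were left out (1 in Batch 1, 1940 in Batch 2). The rest were clustered with Leiden (resolution 1.0, 30 principal components of 2000 variable genes centred by batch, 15 neighbours) without any junction gene listed. Clusters were named from marker lists, and 250 cells of 4 unnamed clusters counted as other. Several classes joined clusters that came mostly from 1 batch. In Batch 1 and Batch 2, vascular clusters 6 and 1 held 459 and 3, and 19 and 901 cells. The AT2-like clusters 11 and 3 held 154 and 16, and 30 and 602, while the AT1-like cluster 7 held 99 and 286. Batch values of the vascular, AT2-like and matrix fibroblast classes thus came largely from different clusters, joined by their markers. No doublet caller was run. Counts were summed per class and batch, since cells are not replicates, and tested with edgeR 4.0.16 (quasi-likelihood, TMM, filterByExpr, batch as the replicate block, Benjamini-Hochberg over all genes). All sums of a batch come from the same mouse, so the batch number pairs them: their deviations from class means correlated at 0.304 to 0.431 over the 3 classes, and at 0.0106 to 0.49 (median 0.131) over the 16 finer classes. With the batch as a block, p-values measure how far differences between classes varied between the 2 batches, pooled over the classes of each fit. Mouse, library and batch cannot be told apart.

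DESeq2 1.42.0 and the other alternatives are given at the end. The fit was tested on simulated counts over 13303 genes for epithelial against endothelial cells, where 98% of genes changed by 2 on the log2 scale and 38% of those changed by 1 were recovered, and over 6889 genes for AT1-like against AT2-like cells, where 83% and 19% were. The simulation gave all classes the same profile and a fixed spread, without a batch effect, and changed only genes above a set level. The shares recovered therefore do not give the power of the tests on these data or for sparse genes. The 10 genes were chosen by name, other list genes by the 3 largest changes in each direction among called genes with at least 50 CPM, and genes of like pattern by correlation. The members and lists were chosen with earlier results of these data known. Cell types that the authors listed for 1998 cells of Batch 1 served as an alternative, without the 67 they called contaminants. Promoter sequences are from RefSeq.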

Additional observations from a re-analysis of the deposited data

Results flagged for a closer look

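The 1940 Batch 2 cells with over 10% mitochondrial UMIs, which entered no comparison, held UMIs of all 10 genes. Each level was above the floor of 3 UMIs (0.00596 per 10000 from 5030373 UMIs). The counting intervals of Cldn1 (0.00438 to 0.0260) and Cldn6 (0.00323 to 0.0232) reached below that floor. Cldn18 was at 7.20, Cldn3 at 3.29, Cldn5 at 1.78, Cldn7 at 1.11 and Tjp1 at 1.01 UMIs per 10000. Cgn was at 0.459, Ocln at 0.390, Cldn4 at 0.274, Cldn1 at 0.0119 and Cldn6 at 0.00994. These cells were not divided into classes, and no comparison with the retained cells was tested.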

How the results depend on the processing

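Without the replicate block the genes called were 2971 for epithelial against endothelial cells, 2736 for epithelial against other, 1860 for endothelial against other, 597 for AT1-like against AT2-like, 930 for airway against alveolar and 496 for lymphatic against vascular cells, in place of 4656, 4336, 3221, 1175, 1511 and 838. The finer classes in 1 fit gave 1399 for endothelial against other cells, and the fit of only the classes compared gave 1811 for AT1-like against AT2-like cells. One direction turned: Cldn5 in epithelial against other cells, not called at 0.10, was at −2.52 without epithelial cells that held an endothelial marker UMI. That filter takes endothelial RNA from the epithelial side alone, so the turn is built in and is no check. The alternatives without unnamed clusters, without the Cxcl12 endothelial cluster, without those cells and without the cells listed as contaminants were chosen after seeing the data. Neither batch alone, nor the cell types listed by the authors for Batch 1, turned the direction of a called fold change of the genes named. Of at most 54 fold changes of the 10 genes, only called ones can lose a call. Higher and lower calls were 6 and 2 for epithelial against endothelial, 7 and 1 for epithelial against other and 3 and 1 for endothelial against other. They were 6 and 0 for AT1-like against AT2-like, 1 and 2 for airway against alveolar, and 1 and 2 for lymphatic against vascular cells. Of these calls, 12 were lost without the block, 7 with DESeq2 and 7 at a mitochondrial limit of 5%. The finer classes in 1 fit, which covers the first 3 comparisons only, lost 4. Lost were also 3 without cells with an endothelial marker UMI, 2 without possible doublets, 1 with finer clusters and 1 without a filter. Gained were 2 with only the classes compared, 1 without a filter on low counts and 1 without the listed contaminants. By over 1 SE moved 34 with the authors' types for Batch 1, 12 without replicate 1 and 24 without replicate 2. Airway against alveolar gave no value without possible doublets, since fewer than 10 airway cells remained in Batch 1. The number of mice (2) and the few UMIs of Cldn1, Cldn4 and Cldn6 limit the precision.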
